A study of Mus musculus with 16 samples.

Results

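The cells described here are mouse embryonic stem cells (ESCs) that lack the zinc finger domain of Prdm4, set against wild-type ESCs. They make up 10 of the 16 arrays of the series, with 4 arrays titled as null and 6 as control. The other 6 arrays, of ESCs with a Prdm4-EGFP transgene, entered the normalization and the estimate of spread but are not compared here. The genotype of the null cells is Prdm4ΔZF/ΔZF and that of the wild-type cells Prdm4+/+, both of strain 129/Sv, with no drug treatment or time course given in the labels. By the study's methods the deletion removed the exons that encode most of the zinc fingers, was made in the CCE line by 2 rounds of targeting with Cre excision of the selection cassette after the first, and left a truncated transcript. Cells of both genotypes were adapted there to growth on gelatin with LIF and without feeder cells, which the labels neither state nor deny for these arrays. Each null clone had therefore passed through electroporation, drug selection and subcloning. The deposited design counts 4 null and 6 wild-type clones, and the study's methods call the replicates biological. Nothing in the labels shows that clones with the same genotype were derived apart from each other. The p-values below therefore measure the spread between these arrays, which need not be that between clones derived apart.

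ESCs are cultured cells of the early embryo that renew themselves under LIF and can form every tissue of the body. Their identity rests on a network of transcription factors, and when they leave the naive state they pass through a formative and then a primed epiblast state before they choose a lineage. Prdm4 belongs to the PRDM family, whose members pair a PR domain, related to histone methyltransferase domains, with zinc fingers that bind DNA. The comparison asks which transcripts differ when that DNA-binding part is missing.

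Of the probes on the Illumina Mouse WG-6 v2 array, 14944 were tested, namely those that at least 4 of the 10 arrays read above background (detection p-value under 0.01). Between 14188 and 14905 probes were above background on each null array and between 14157 and 14629 on each wild-type array. The first principal component, with 61.6% of the variance, placed the null arrays at 27.4 to 32.8 and the wild-type arrays at -23.5 to -17.0. The second, with 13.5%, separated wild-type arrays 1, 5 and 6 from wild-type arrays 2, 3 and 4. Levels are given as normalized log2 intensity, and a log2 difference is the null mean minus the wild-type mean. In these bulk samples fewer cells of a type and less RNA per cell cannot be told apart.

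The ESC markers Pou5f1 (Oct4) and Zfp42 (Rex1) were above background on every array. Pou5f1 averaged 12.73 ± 0.17 on the null arrays (SD, n = 4) and 12.91 ± 0.10 on the wild-type arrays (SD, n = 6), and Zfp42 12.66 ± 0.10 on the null arrays and 12.65 ± 0.12 on the wild-type arrays. Neither was called (adjusted p = 0.12 and 0.94 in limma), but Pou5f1 was called lower in the value table of the authors, by -0.38 on the log2 scale, and with median scaling, by -0.30. Among the other ESC markers, Nanog and Esrrb were lower on every null array than on any wild-type array. Sox2 was higher on every null array, though its call was easily lost (below), and the groups of Dppa5a and Tdgf1 overlapped. Of 26 markers of feeder fibroblasts, the cells on which ESCs are often grown, 18 did not pass the detection filter, Col1a1, Col1a2, Col3a1 and Dcn among them. The summed linear level of the 8 others was 1249 to 1337 on the null arrays and 1377 to 1789 on the wild-type arrays. Of these 8, Timp3, Twist1 and Acta2 rose, above background on 3, 2 and 2 of the 6 wild-type arrays (Acta2 was not called without null array 1 or 4 or without wild-type arrays 1, 5 and 6), and Thy1 fell (-1.79 on the log2 scale), and the part of other cells in the results below was not tested.

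Prdm4 itself was read by 2 probes. On the dimmer probe the null arrays read 4.74, 4.68, 4.62 and 4.73, all below background, against 7.06 to 7.49 on the wild-type arrays. Prdm4 transcript was at least 3.19-fold lower by this probe (adjusted p = 1.1e-12 in limma). The brighter probe read 9.72, 9.56, 9.69 and 9.69 on the null arrays, against 10.17 to 10.40 on the wild-type arrays, a log2 difference of -0.63 (SE 0.07, adjusted p = 5.4e-07). Neither pair of groups overlapped, and for either probe p = 0.0048 by exact permutation (two-sided), which is the smallest value that 210 arrangements of 4 and 6 arrays allow. The positions of the probes in the transcript were not used here, so which of them lies in the deleted exons was not tested. Among the 5 tested genes nearest to Prdm4 on each side of chromosome 10, Timp3, an inhibitor of matrix metalloproteinases, rose by 1.12 (SE 0.12), although 3 of the 6 arrays of wild-type cells were below background. Btbd11 rose by 0.24, and Ric8b, a chaperone of G protein subunits, fell by 0.38, a call lost without wild-type arrays 1, 5 and 6. The call of Btbd11 was lost without any 1 of 3 null or 3 wild-type arrays, in the value table of the authors and with the mean of its probes (0.021). The 7 others, with the genes directly on either side of Prdm4, were not called.

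The comparison called 6304 probes, or 42.2% of those tested, with 3251 higher and 3053 lower in null cells, so that 51.6% of the calls were higher. In the value table as the authors normalized it that share was 37.7% (2367 higher and 3914 lower). Taken per gene, each by its brightest probe, 8534 genes were tested and 3819 were called (44.8%). Of these, 2008 rose in null cells (23.5% of the genes tested) and 1811 fell (21.2%). For 2786 genes (32.6%) the null and wild-type arrays did not overlap. Most differences were small: the median fold of the called genes was 1.33, while 178 genes rose and 186 fell by more than 2-fold, and 15 rose and 15 fell by more than 4-fold. The spread between arrays was narrow, with a median SD of 0.106 among the null and 0.152 among the wild-type arrays. The share called was similar from dim to bright genes, at 42.8, 45.4, 47.1 and 43.7% in the 4 quartiles of level, whereas the median fold of the called genes was 1.47, 1.37, 1.30 and 1.25.

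**Figure D1:**
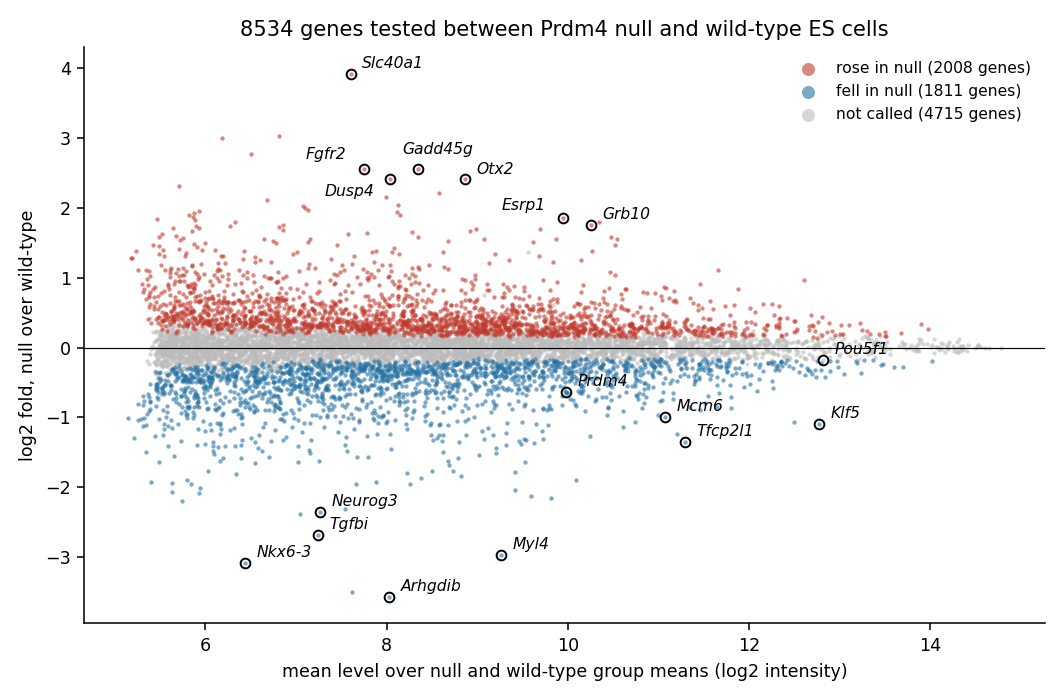
Each of the 8534 tested genes is a point, with its level (mean of the null and wild-type group means, log2 intensity) on the x axis and the log2 fold of null over wild-type on the y axis; red points rose, blue points fell and grey points were not called. Slc40a1 lies highest and Arhgdib lowest, and both colours reach across the whole range of levels.

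The largest fitted rise was that of Slc40a1, which encodes ferroportin, the iron exporter of mammalian cells. It read 9.55, 9.68, 9.55 and 9.46 on the null arrays, against 5.20 to 5.99 (median 5.69) on the wild-type arrays, 2 of which were below background, and rose by 3.92 (SE 0.17, adjusted p = 1.5e-11). Hebp1, a heme-binding protein, read 5.84, 5.33, 6.18 and 6.17 on the null arrays, 1 of which was below background, against 9.04 to 9.95 (median 9.34) on the wild-type arrays, a log2 difference of -3.49 (SE 0.18). These were the only genes of 24 tested for iron and heme handling that differed by more than 2-fold, and 4 of the 24 rose and 3 fell, against 23.5% and 21.2% of all genes. In the value table of the authors 1 of them rose and 6 fell, and with median scaling 2 rose and 4 fell.

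Among the large rises were genes of growth factor reception and of the negative feedback of signalling. Fgfr2, an FGF receptor, read 8.96, 9.11, 9.02 and 8.99 on the null arrays, against 5.97 to 7.17 (median 6.36) on the wild-type arrays (log2 difference 2.55, SE 0.20). Dusp4, a phosphatase that inactivates Erk, read 9.40, 9.39, 9.18 and 9.03 on the null arrays, against 6.52 to 7.01 (median 6.94) on the wild-type arrays. Gadd45g, a growth arrest protein induced by stress, read 9.52, 9.63, 9.68 and 9.67 on the null arrays, against 6.84 to 7.33 (median 7.13) on the wild-type arrays. All null arrays stood above all wild-type arrays for each of the 3, and the null arrays lay closer together than the wild-type arrays. Lpar4 and Lpar6, receptors for lysophosphatidic acid, rose by 2.21 (SE 0.13) and 2.16 (SE 0.23), and Fgfbp1, a secreted carrier of FGFs, by 2.11 (SE 0.28), though only 3 of 6 wild-type arrays read it above background. Igf2, an imprinted growth factor, rose by 1.94 (SE 0.14).

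Homeobox and other developmental regulators were also among the large rises. Otx2, a homeodomain factor that acts in the primed epiblast, read 10.06, 10.11, 10.15 and 9.93 on the null arrays, against 7.09 to 8.42 (median 7.53) on the wild-type arrays, where arrays 1, 5 and 6 (7.76 to 8.42) lay above arrays 2, 3 and 4 (7.09 to 7.30). The POU factor Pou3f1 read 9.13, 9.12, 9.19 and 9.15 on the null arrays, against 6.81 to 7.59 (median 7.05) on the wild-type arrays. En2, a homeobox factor of the midbrain, rose by 1.97 (SE 0.17), and its paralogue En1, below background on every wild-type array, was at least 2.48-fold higher. The splicing regulator of epithelial cells Esrp1 rose by 1.86 (SE 0.19) and the Rhox cluster gene Rhox9, above background on 4 of 6 wild-type arrays, by 2.03 (SE 0.31). Efhc2, an EF-hand protein, read 8.36, 8.21, 8.35 and 8.39 on the null arrays, against 4.55 to 6.91 (median 5.02) on the wild-type arrays, only 2 of which were above background.

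Several genes had a signal above background on all 4 null arrays and on no wild-type array, so that only a lower bound can be given. In all, 81 genes that rose were below background on every wild-type array. Among them were the ubiquitin ligase Ube2cbp (at least 4.89-fold higher), the secreted protease Adamts9 (at least 2.41-fold), the ephrin Efna5 (at least 2.36-fold), the forkhead factor Foxq1 (at least 2.25-fold), the cornified envelope protein Lor (at least 2.3-fold), the ubiquitin ligase adaptor Klhl13 (at least 2.29-fold), the glutamate receptor Grm6 (at least 1.73-fold) and the semaphorin receptor Nrp2 (at least 1.66-fold). Adamts9 read 6.86, 6.85, 6.92 and 6.84 on the null arrays. The wild-type arrays read 4.51 to 4.58, below background, so their narrow range is not that of a measured level.

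The largest falls included genes of the cytoskeleton and matrix. Arhgdib read 5.99, 6.15, 6.25 and 6.59 on the null arrays, against 9.36 to 10.17 (median 9.83) on the wild-type arrays (log2 difference -3.57, SE 0.14, adjusted p = 3.2e-12). Myl4, a myosin light chain of embryonic and atrial muscle, read 7.52, 7.71, 7.67 and 8.19 on the null arrays, against 10.54 to 10.89 (median 10.82) on the wild-type arrays. Tgfbi, an extracellular matrix protein that responds to TGF-beta, read 5.80, 5.95, 5.80 and 6.07 on the null arrays, against 8.19 to 8.96 (median 8.58) on the wild-type arrays. None of these groups overlapped. Also lower were the keratins Krt17 (-2.15, SE 0.19) and Krt42 (-1.90, SE 0.19), the membrane repair protein Dysf (-1.95, SE 0.12), the myosin Myo1f (-1.92, SE 0.12) and the Ras-related GTPase Mras (-2.12, SE 0.10).

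Transcription factors and enzymes followed. Neurog3, the bHLH factor of endocrine progenitors, read 6.02, 5.69, 6.20 and 6.45 on the null arrays, against 8.16 to 8.67 (median 8.52) on the wild-type arrays. The homeobox gene Nkx6-3 was below background on every null array and at least 5.36-fold lower. The imprinted gene Mest read 5.47, 5.97, 5.70 and 6.27 on the null arrays, 1 of them below background, against 7.93 to 8.67 (median 8.17) on the wild-type arrays. The bHLH repressor Msc (-2.04, SE 0.13), the G-patch protein Gpatch4 (-2.30, SE 0.13), the calcium pump Atp2a3 (-1.86, SE 0.18) and Cmas, which activates sialic acid (-1.85, SE 0.12), fell as well. Among the 98 genes that fell and were below background on every null array, Slc51a, a transporter of organic solutes, was at least 2.16-fold lower, the metallothionein Mt3 at least 2.61-fold, the chitinase-like protein Chil1 at least 2.06-fold and Cptp, a lipid transfer protein, at least 1.75-fold. By p-value the falls of the semaphorin Sema4a (-1.76, SE 0.08), of Ets2, an ETS factor (-1.26, SE 0.06) and of Fbxo2, a ubiquitin ligase subunit (-1.63, SE 0.08), stood with those above.

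**Figure D2:**
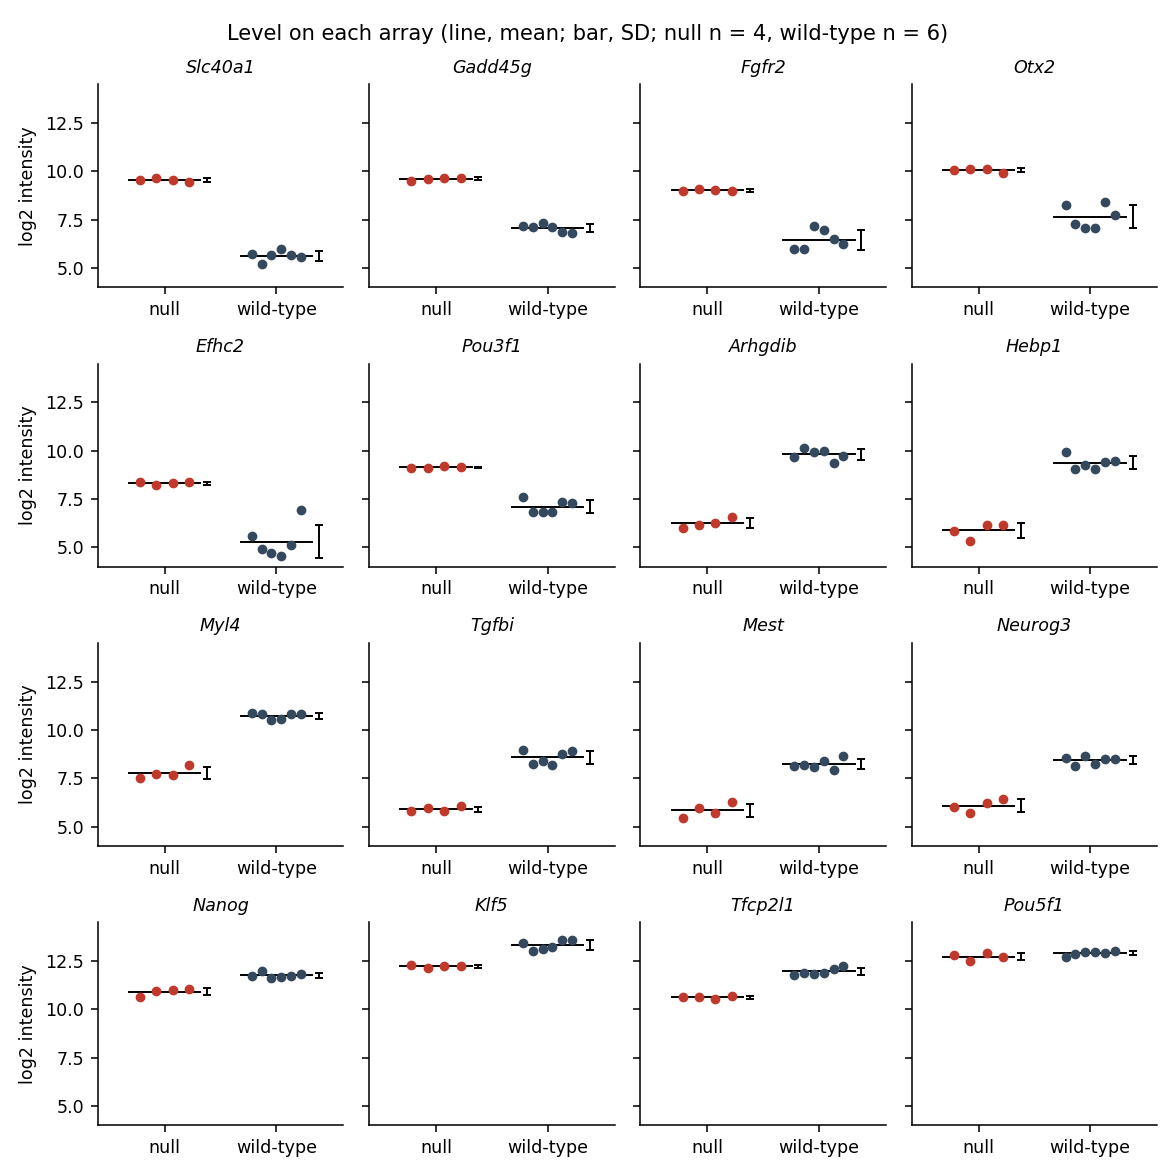
Normalized log2 intensity of 16 genes on each array, null (red, n = 4) left of wild-type (dark blue, n = 6), with the mean as a line and the SD as a bar. The groups of 15 genes do not overlap, while those of Pou5f1 do.

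Genes bound by Prdm4 were taken from the study's ChIP-seq of Prdm4-EGFP in ESCs, as 180 genes with a binding region within 5 kb of their start, a list that does not rest on these arrays. Of these, 162 were on the array and 96 were tested, of which 26 rose (27.1%) and 27 fell (28.1%), against 23.5% and 21.2% of all genes. Their median log2 difference was 0.03, against 0.02 over all genes, and 10 differed by more than 2-fold. Of the 80 bound genes above background on all 10 arrays, 18 rose and 25 fell. Of all 12718 probes above background on all 10 arrays, fitted alone, 2789 rose and 2623 fell. Outside chromosome 1, 25 of 90 tested bound genes rose (27.8%) and 22 fell (24.4%), against 24.5% and 18.8% of all genes there. The largest falls were those of Neurog3 and of Ctdsp2, a small phosphatase that acts on RNA polymerase II, which read 7.84, 7.74, 7.67 and 8.15 on the null arrays, against 9.42 to 9.71 (median 9.53) on the wild-type arrays (log2 difference -1.69, SE 0.10). Next were Tmem79, a membrane protein of the epidermis (-1.62, SE 0.10), and Klf5, a naive pluripotency factor (-1.10, SE 0.11). Klf5 lies on chromosome 14, as do Mzt1 (-1.39) and Bora (-1.37), and whether these falls belong together was not tested. On that chromosome 69 of 294 tested genes rose and 75 fell. Wbp4, a splicing protein (-1.08, SE 0.16), and Bahcc1 (-0.95, SE 0.10) followed. The innate immune adaptor Myd88 (-0.55), the nitric oxide synthase Nos3 (-0.68), the cytochrome oxidase subunit Cox7a1 (-0.60) and Aamp (-0.37) fell less.

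Among bound genes that rose, the membrane protein gene Ms4a10 read 7.06, 7.21, 7.39 and 7.23 on the null arrays, against 4.94 to 6.04 (median 5.41) on the wild-type arrays, 2 of which were above background. The zinc finger gene Egr1, which responds fast to Erk activity, read 10.10, 9.97, 9.72 and 9.61 on the null arrays, against 8.11 to 8.51 (median 8.30) on the wild-type arrays, and rose by 1.55 (SE 0.10). Pim2, a survival kinase, read 7.10, 6.48, 6.86 and 6.55 on the null arrays, against 4.79 to 5.50 (median 5.33) on the wild-type arrays, where this probe was below background. Each of the 3 had all null arrays above all wild-type arrays. Tbc1d9, a Rab GTPase activator (1.19, SE 0.14, above background on 1 of 6 wild-type arrays), Espn, an actin bundler (1.08, SE 0.13, on 5 of 6), Ifitm1, an interferon-induced membrane protein (0.97, SE 0.10), the ligand gene Nodal (0.58, SE 0.08) and Dppa4, a chromatin protein of pluripotent cells (0.43, SE 0.06), also rose.

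**Figure D3:**
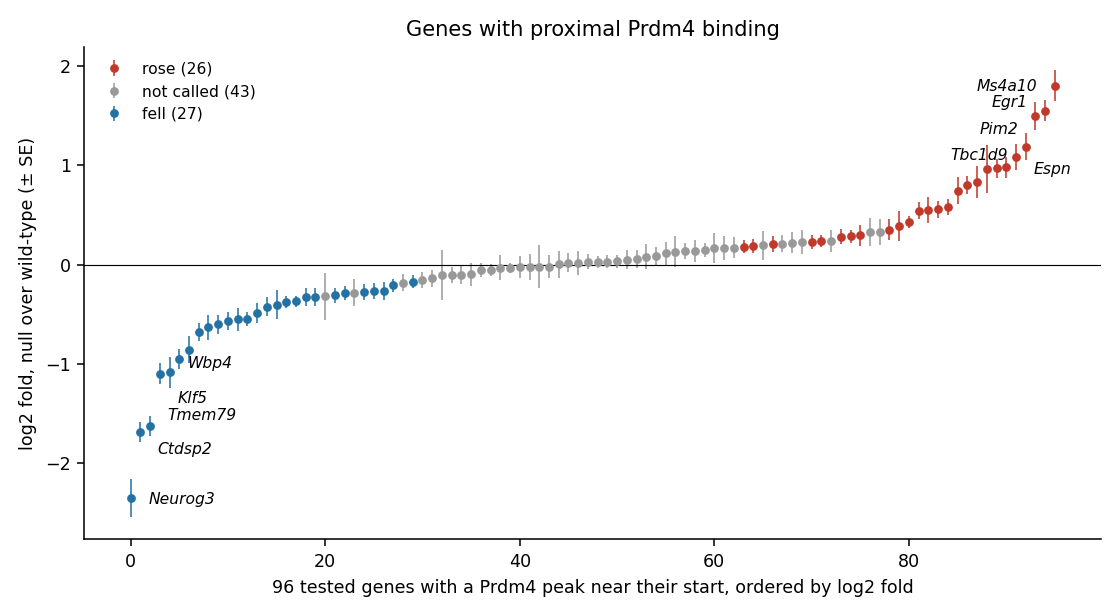
The 96 tested genes with proximal Prdm4 binding, ordered by the log2 fold of null over wild-type (y axis; bars, SE), with red for the 26 that rose, blue for the 27 that fell and grey for the 43 not called. Neurog3 is lowest and Ms4a10 highest, and rises and falls are about equal in number.

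The study described the bound motif as GGG, CT and GAAAC. Between GGG and CT lie 1 to 4 bases, and between CT and GAAAC 1 base. In nearly all of its binding regions the study reported a significant match to such a motif. Here the exact sequence was sought in a short stretch around the start of genes, so the shares below are not comparable with that. In RefSeq promoters of assembly GRCm38.p6, from 250 bases before to 50 after the start, the complete motif lay on either strand in 95 of 27025 genes (0.352%) and in 32 of the 6980 tested genes that had a promoter (0.458%). It lay in 8 of 1655 genes that rose (0.483%), 8 of 1472 that fell (0.543%) and 16 of 3853 not called (0.415%). Of those that fell, Cnst, Ctdsp1, Eef1b2, Nuf2 and Odr4 lie on chromosome 1, where 68.3% of all tested genes fell. Ctdsp2, Itpripl1 and Steap1 lie elsewhere. Of genes with proximal binding, 9 of 141 held it (6.38%), and the core GAAAC alone lay in 48.9% of all promoters. The study found the motif in the binding regions that define the bound genes, so a higher share among them was given in advance. The 5 bound and tested genes with the motif were Ctdsp2 and Ctdsp1, which fell, Pim2, which rose, and Smurf1 and Srsf5, which were not called (-0.02 and 0.17), though Srsf5 was called higher (0.35) without wild-type arrays 2, 3 and 4. The promoters of Ctdsp2 (chr10:126978467-126978766, plus strand), Pim2 (chrX:7878056-7878355, plus strand) and Srsf5 (chr12:80945249-80945548, plus strand) are shown because they carry the same motif beside a fall, a rise and no call. Capitals mark the motif, which reads on the opposite strand in Ctdsp2 and Srsf5, and a match is a description and not a site shown to be used.
Ctdsp2: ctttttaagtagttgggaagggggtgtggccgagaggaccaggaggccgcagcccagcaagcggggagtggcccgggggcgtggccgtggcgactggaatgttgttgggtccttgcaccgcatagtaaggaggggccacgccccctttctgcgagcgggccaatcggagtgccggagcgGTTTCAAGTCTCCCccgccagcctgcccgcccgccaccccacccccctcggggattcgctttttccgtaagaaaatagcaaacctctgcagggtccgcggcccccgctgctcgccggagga
Pim2: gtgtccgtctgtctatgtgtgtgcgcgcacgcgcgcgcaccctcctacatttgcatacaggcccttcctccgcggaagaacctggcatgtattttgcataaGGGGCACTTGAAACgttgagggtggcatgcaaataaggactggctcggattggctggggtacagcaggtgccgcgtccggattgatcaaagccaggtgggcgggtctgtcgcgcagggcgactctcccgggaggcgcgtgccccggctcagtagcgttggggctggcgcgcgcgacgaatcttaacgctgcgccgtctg
Srsf5: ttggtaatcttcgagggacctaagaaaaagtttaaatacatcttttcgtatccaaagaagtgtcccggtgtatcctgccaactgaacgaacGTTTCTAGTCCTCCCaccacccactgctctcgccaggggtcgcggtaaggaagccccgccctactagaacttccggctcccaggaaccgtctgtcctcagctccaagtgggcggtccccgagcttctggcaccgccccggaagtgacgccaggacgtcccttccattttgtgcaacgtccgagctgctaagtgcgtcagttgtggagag
Counted from the start of transcription, the match began at base -71 in Ctdsp2, at -149 in Pim2 and at -159 in Srsf5. In Ctdsp1, which fell by 0.63 (SE 0.13), it began 32 bases after the start.

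Genes were next grouped by function, and each group is read against the share of all genes that rose (23.5%) or fell (21.2%). The lists behind the groups were drawn up with earlier results of these arrays known, so their counts are a description. Members that did not pass the detection filter are left out, and a dim gene that only one genotype showed above background had to differ in order to pass, so that counts of lists with dim members support nothing.

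**Figure D4:**
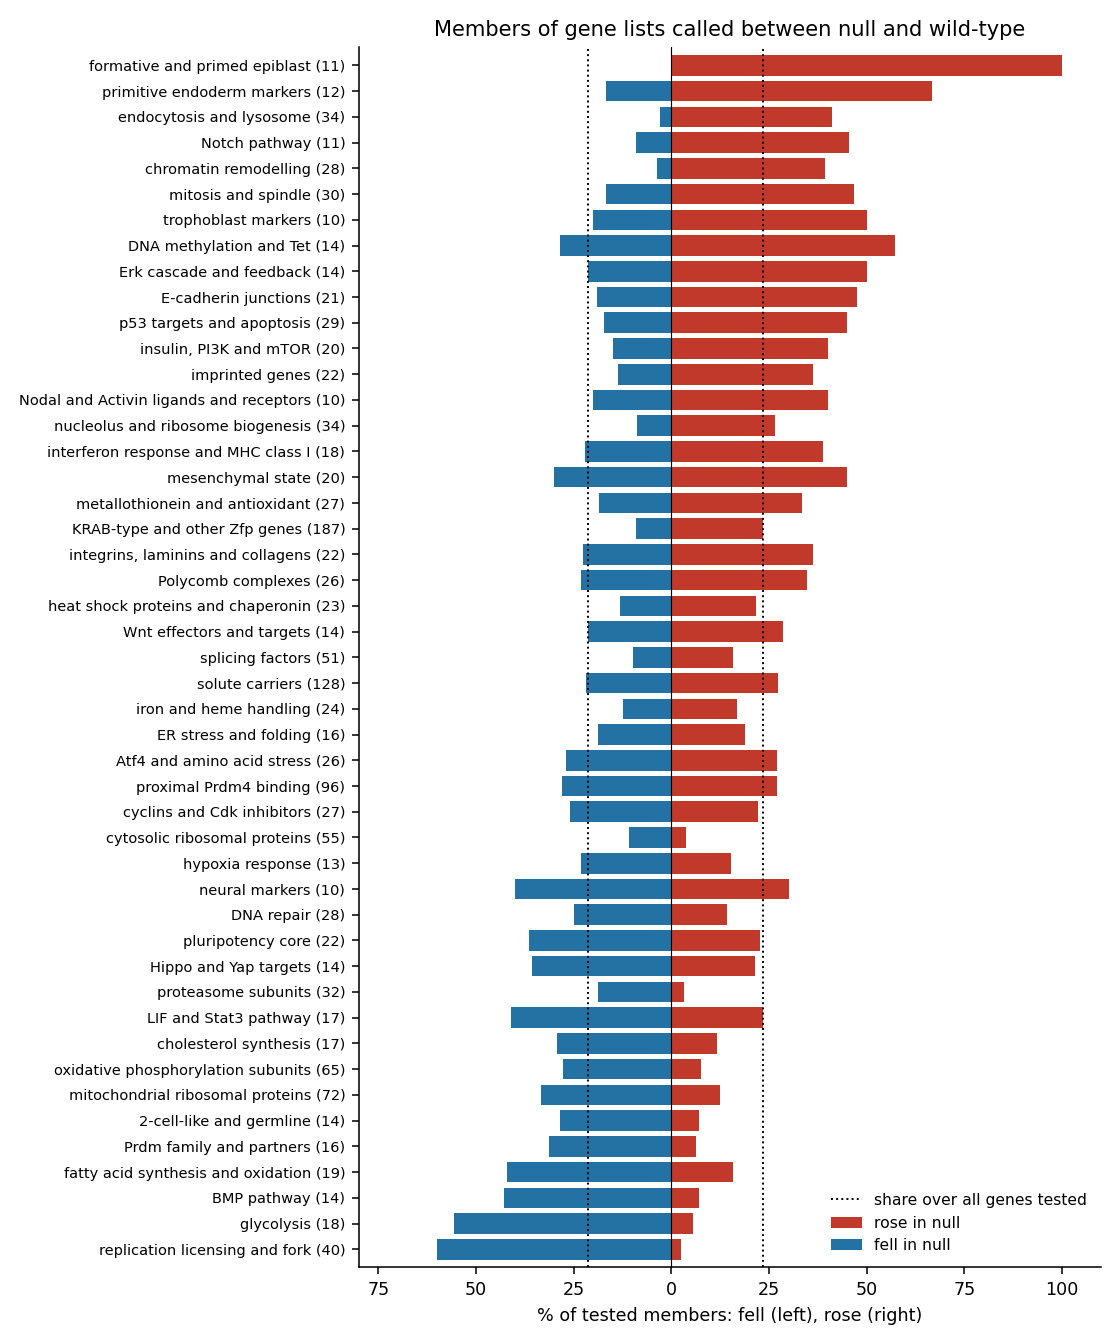
Share of the tested members that rose (red, right) or fell (blue, left) in null cells, for most lists with at least 10 tested members, with the number tested in brackets and dotted lines at the shares over all 8534 genes. Formative and primed epiblast genes stand at one end and replication genes at the other.

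Of 18 genes of the formative and primed epiblast on the array, 11 were tested and rose, and 7 did not pass the filter. Of the 11, 7 were above background on all 10 arrays, while Fgf5, Sall2 and the brighter probe of Pim2 were above it on no wild-type array and Car14 on 3 null arrays and 1 wild-type array. Besides Otx2 and Pou3f1 they included the tight junction gene Cldn6, with 10.61, 10.54, 10.72 and 10.71 on the null arrays against 8.74 to 9.44 (median 9.07) on the wild-type arrays, and Fgf5 and the zinc finger gene Sall2, at least 1.25-fold and 2.04-fold higher. The pluripotency core, with 22 tested, gave 5 rises and 8 falls and a median of -0.08. Outside chromosome 1 it was 5 rises and 6 falls among 19, with a median of 0.01. Tfcp2l1, a naive factor on chromosome 1, read 10.63, 10.63, 10.53 and 10.68 on the null arrays, against 11.80 to 12.23 (median 11.90) on the wild-type arrays. Nanog read 10.65, 10.95, 11.01 and 11.05 on the null arrays, against 11.60 to 11.98 (median 11.74) on the wild-type arrays. Both were lower on every null array than on any wild-type array. So was Esrrb, at 12.46 to 12.66 on the null and 12.69 to 13.08 on the wild-type arrays. Tbx3 (7.46 to 8.25 against 9.05 to 9.51) and Klf4 (8.25 to 8.49 against 8.76 to 9.29) were lower too. Prdm14 read 6.54 to 6.95 against 7.53 to 7.91. Fbxo15 (11.86 to 11.95 against 10.90 to 11.33) and Gdf3 (10.96 to 11.17 against 10.58 to 10.88) were higher on every null array. Sox2, a core factor, rose by 0.29 (SE 0.10), a call lost without any 1 of null arrays 1, 2 and 4 or wild-type arrays 1 and 6, without either set of 3 wild-type arrays, in the value table of the authors (0.20) and with the mean of its probes (0.12).

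Signalling pathways differed in how many members were called. Of 9 FGF ligands, receptors and carriers 6 rose and 2 fell (of the 4 above background on all arrays, 1 and 2), with Fgf13, which acts inside the cell, up by 1.21 (SE 0.12, above background on 3 of 6 wild-type arrays) and the ligand gene Fgf17 lower (-1.38, SE 0.19). Of 14 genes of the Erk cascade and its feedback 7 rose and 3 fell, and the ETS factor Etv4, a target of FGF signalling, was one that fell (-1.19, SE 0.11). In the Notch pathway 5 of 11 rose and 1 fell: the receptor Notch3 (0.87), the target Hey1 (0.72), the ligand Jag2 (0.72, above background on only 3 null arrays and 1 wild-type array), the glycosyltransferase Rfng (0.67) and the inhibitor Numb (0.32) rose, and Hes1, another target, fell by 1.04 (SE 0.08). Of 9 Wnt ligands, receptors and inhibitors 4 fell and 1 rose. Sfrp1, a secreted Wnt inhibitor, read 7.97, 8.07, 7.93 and 8.02 on the null arrays, against 9.39 to 9.78 (median 9.56) on the wild-type arrays. The receptors Fzd5 (-0.86) and Fzd10 (-1.03) and the ligand Wnt6 (-1.34) fell, while the receptor Fzd6, above background on 4 of 6 wild-type arrays, rose by 0.42. Fzd5 and Wnt6 lie on chromosome 1. Wnt effectors and targets were mixed, with 4 of 14 higher and 3 lower, Axin2 (0.65, not called without wild-type arrays 2, 3 and 4) and Sp5 (0.89, above background on 3 null arrays and 1 wild-type array) among those that rose and Ccnd1 (-0.76) among those that fell.

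In the BMP pathway 1 of 14 rose and 6 fell, and in the LIF and Stat3 pathway 4 of 17 rose and 7 fell. Of 7 Hedgehog genes 1 rose and 2 fell: the effector Gli3 rose by 0.93 (SE 0.08), whereas the effector Gli2 fell by 1.26 (SE 0.10) as did Disp1, which releases the ligand (-0.70), both on chromosome 1. Of 20 genes of insulin, PI3K and mTOR signalling 8 rose and 3 fell. Pik3r1, the regulatory subunit of PI3K, read 7.40, 7.27, 7.34 and 6.91 on the null arrays, against 5.72 to 6.17 (median 6.04) on the wild-type arrays, and the catalytic subunit Pik3cb, the mTORC2 subunit Rictor and the mTORC1 inhibitor Tsc1 rose by 0.61, 0.49 and 0.53. Of 14 genes of the Hippo pathway 3 rose and 5 fell, with Ccn2, a Yap target, up by 1.32 (SE 0.10).

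The machinery of DNA replication was lower. Of 40 tested genes of replication licensing and the fork, 24 fell and 1 rose, with a median of -0.24, and outside chromosome 1 it was 20 falls and 1 rise among 36. Mcm6, a subunit of the replicative helicase, read 10.59, 10.58, 10.48 and 10.63 on the null arrays, against 11.31 to 11.68 (median 11.60) on the wild-type arrays. Gins2, another helicase subunit, read 9.28, 9.22, 9.49 and 9.48 on the null arrays, against 10.10 to 10.40 (median 10.22) on the wild-type arrays. The groups of neither gene overlapped. Gins3 (-0.60, SE 0.07), the primase subunit Prim2 (-0.82, SE 0.09), the ribonucleotide reductase subunit Rrm2 (-0.64, SE 0.08) and Mcm3 (-0.71, SE 0.11) fell too, with Mcm6, Mcm3 and Prim2 on chromosome 1. The polymerase subunit Pold1 was the 1 gene that rose (0.23, SE 0.07), a call lost without null array 1, without wild-type arrays 2, 3 and 4 and in the value table of the authors (0.11). No alternative setting turned the balance of this list.

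Mitosis and spindle genes gave 14 rises and 5 falls among 30, with a median of 0.16. The anaphase activator Cdc20 rose by 0.38 (SE 0.07, not called in the value table of the authors at 0.18), the kinesin Kif2c by 0.32 (SE 0.07) and Incenp, of the chromosomal passenger complex, by 0.37 (SE 0.08). The largest differences went the other way. They were the falls of Mzt1, a partner of the gamma-tubulin ring (-1.39, SE 0.11), and Bora, an activator of Aurora A (-1.37, SE 0.12), both on chromosome 14. The kinetochore gene Nuf2 on chromosome 1 also fell (-0.37, SE 0.08). The excess of rises did not hold in the value table of the authors (5 rises and 6 falls) or among arrays numbered 1 and 2 alone (1 and 4). Of 27 cyclins, Cdks and inhibitors 6 rose and 7 fell. The D-type cyclins of the G1 phase Ccnd3 (-0.86, SE 0.08) and Ccnd1 (-0.76, SE 0.09) and the activator E2f2 (-1.05, SE 0.07) fell, and the cyclins Ccng1 and Ccnf rose by 0.71 and 0.70.

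Genes of energy metabolism were next. Of 18 glycolytic genes 10 fell and 1 rose, with a median of -0.22. The aldolase Aldoc read 6.77, 6.95, 6.87 and 6.86 on the null arrays, against 7.69 to 7.91 (median 7.86) on the wild-type arrays. The glucose transporter Slc2a1 read 12.04, 12.06, 12.05 and 11.89 on the null arrays, against 12.26 to 12.66 (median 12.50) on the wild-type arrays. Eno3 (-0.72), Pdk1 (-0.33), Ldha (-0.24) and Pfkfb4 (-0.43) fell, and Pkm rose by 0.25, though it was not called in the value table of the authors (0.01) or with median scaling (0.09). The bright enzymes thus differed by little, 1.18-fold for Ldha and 1.19-fold for Pkm. Of 65 subunits of oxidative phosphorylation 18 fell (27.7%, near the 21.2% of all genes) and 5 rose (7.69%), with a median of -0.12. Among the falls were Sdhc, Ndufb3 and Ndufa10 on chromosome 1 (-0.70, -0.71 and -0.54) and Cox7a1, Ndufa8 and Ndufa3 elsewhere (-0.60, -0.31 and -0.34). Of 72 mitochondrial ribosomal proteins 24 fell and 9 rose, with Mrps9 (-0.80), Mrpl30 (-0.65) and Mrpl36 (-0.41) among the falls, the first and second on chromosome 1. Off chromosome 1, where 18.8% of all genes fell, 14 of 61 fell for oxidative phosphorylation (22.95%) and 21 of 68 for mitochondrial ribosomes (30.9%). Lipid synthesis and oxidation included 8 falls and 3 rises among 19 fatty acid genes, with the desaturase Scd1 lower (-1.25, SE 0.09).

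Cytosolic ribosomal proteins were close to level, with 2 rises and 6 falls among 55 and a median of 0.00, a smaller share of calls than over all genes. In the value table of the authors they gave 0 rises and 29 falls with a median of -0.21, and with median scaling 1 rise and 11 falls with a median of -0.13. Proteasome subunits gave 1 rise and 6 falls among 32, with the inducible subunit Psmb10 lower (-0.89, SE 0.10), and splicing factors 8 rises and 5 falls among 51, a balance that turned to 4 rises and 17 falls in the value table of the authors and to 6 and 8 with median scaling.

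Chromatin and membrane traffic lists leaned towards rises. Of 28 subunits of chromatin remodelling complexes 11 rose and 1 fell, with a median of 0.18. No wild-type array read the ATPase gene Smarca2 above background, and it was higher by at least 1.52-fold. Smarcd3, a subunit of the same family of complexes, was lower by at least 1.83-fold, with no null array above background. Mta3, of the NuRD complex, rose by 0.78 (SE 0.09), the helicases Chd8 and Chd9 by 0.60 and 0.68, and Arid2 by 0.50. Of 34 genes of endocytosis and lysosomes 14 rose and 1 fell, with a median of 0.18. Lrp2, an endocytic receptor, read 9.10, 9.23, 9.05 and 8.98 on the null arrays, against 6.61 to 7.53 (median 7.26) on the wild-type arrays, and its adaptor Dab2 read 8.26, 8.10, 7.92 and 8.12 on the null arrays, against 5.74 to 6.59 (median 5.95) on the wild-type arrays. Tfe3, a regulator of lysosomal genes, rose by 0.75 (SE 0.09), the autophagy genes Gabarapl1 and Sqstm1 by 0.68 and 0.45 and the proton pump subunit Atp6v0d1 by 0.53. Psap, the precursor of saposins, was the 1 gene that fell (-0.17), a call lost without any 1 of null arrays 2 and 4 or wild-type arrays 1 and 6 and without wild-type arrays 1, 5 and 6. Neither list turned its balance under any setting.

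Of 14 genes of DNA methylation and demethylation 8 rose and 4 fell. The oxidase Tet1 read 11.79, 11.81, 11.66 and 11.53 on the null arrays, against 10.87 to 11.18 (median 10.97) on the wild-type arrays, and the methyltransferase Dnmt3b read 12.90, 12.98, 12.90 and 12.88 on the null arrays, against 12.31 to 12.56 (median 12.44) on the wild-type arrays. Both were bright in each group and higher on every null array. Gadd45a rose by 1.08 (SE 0.12) and Gadd45b fell by 0.50 (SE 0.09), so the Gadd45 genes did not all move one way. Of 26 Polycomb genes 9 rose and 6 fell, with Bcor (1.09), Phf19 (0.98), Bmi1 (0.95, above background on 1 of 6 wild-type arrays), Phc1 (0.51), L3mbtl2 (0.49) and Aebp2 (0.49) among the rises. In the value table of the authors falls outnumbered rises in this list.

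Epithelial and mesenchymal genes were both called often. Of 21 genes of E-cadherin junctions and their epithelial partners 10 rose and 4 fell, with the E-cadherin gene Cdh1 up by 0.25 (SE 0.08, not called without null array 1 or 2, without wild-type arrays 2, 3 and 4 or in the value table of the authors), the keratins Krt8 and Krt18 by 0.64 and 1.05 (Krt18 above background on 1 of 6 wild-type arrays), the desmosome gene Pkp2 by 0.48 and the epithelial factor Grhl2 by 0.56. Of 20 genes of the mesenchymal state 9 rose and 6 fell, with the tropomyosin Tpm1 up by 1.22 (SE 0.12), the galectin Lgals1 by 0.82, and the actin-binding gene Tagln2, on chromosome 1, lower (-1.24, SE 0.09). Of 22 genes of integrins, laminins and collagens 8 rose and 5 fell, among them Col4a2 (1.30, above background on 5 of 6 wild-type arrays), Nid2 (0.51), Lamc1 on chromosome 1 (-0.91) and the integrin Itgb7 (-1.03).

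Lineage markers were mostly dim or untested. Of 12 tested markers of primitive endoderm 8 rose and 2 fell (of the 9 above background on all arrays, 6 and 2), with the factor Gata6 reading 6.63, 6.53, 6.35 and 6.35 on the null arrays, against 4.68 to 5.94 (median 4.93) on the wild-type arrays, only 1 of which was above background. Of 10 trophoblast markers 5 rose and 2 fell (2 and 1 of the 5 above background on all arrays), of 10 neural markers 3 rose and 4 fell, and of 5 mesoderm markers 1 rose and 2 fell. The microtubule protein Mapt fell by 1.44 (SE 0.11), while Stmn2, another neuronal microtubule gene, read 10.47, 10.67, 10.41 and 10.60 on the null arrays, against 7.92 to 10.26 (median 8.73) on the wild-type arrays. In the wild-type group Stmn2 was low on arrays 1, 5 and 6 (7.92 to 8.02) and higher on arrays 2, 3 and 4 (9.43 to 10.26).

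Of 22 imprinted genes 8 rose and 3 fell, with Igf2, Peg3 (1.18), Gnas (0.51, not called at 0.16 with the mean of its probes) and Snurf (0.43, not called at 0.23 in the value table of the authors) among the rises and Mest and Cobl (-0.41) among the falls. Grb10, an imprinted adaptor of insulin signalling, read 11.10, 11.16, 11.20 and 11.05 on the null arrays and 9.69 to 10.26 on wild-type arrays 1 to 5, but 6.39 on wild-type array 6. It rose by 1.75 (SE 0.51), and by 1.16 without that array. Of 29 genes of p53 targets and apoptosis 13 rose and 5 fell, with the kinase Plk2 (1.18), the BH3 proteins Bcl2l11 (0.93) and Bbc3 (0.82) and the p53 inhibitor Mdm2 (0.79) higher, Casp8 below background on every null array and at least 1.66-fold lower. In 2 large families, 44 of 187 Zfp genes rose and 17 fell, and 35 of 128 solute carriers rose and 28 fell (32 and 34 in the value table of the authors). Among solute carriers Slc46a3 (1.56, SE 0.10, above background on 5 of 6 wild-type arrays) and Slc27a2 (1.34, SE 0.08) rose and Slc29a3 (-1.57, SE 0.11) and Slc47a1 (-1.35, SE 0.10) fell.

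Genes of chromosome 1 were lower together. Of 417 tested genes there, 285 fell and 22 rose, and 86.3% had a log2 difference below 0, against 44.8% of genes elsewhere. The median of chromosome 1 minus the median of all other chromosomes was -0.44, or 0.74-fold. On single arrays it was -0.46, -0.44, -0.44 and -0.40 in null and -0.03 to 0.02 in wild-type. Every other chromosome lay between -0.03 and 0.08. Chromosome 1 held 4.89% of the genes tested, 15.7% of those that fell and 1.10% of those that rose. Not every gene of chromosome 1 named above is marked as lying there, for instance Chil1 among the falls. Off chromosome 1, 1984 of 8107 genes rose (24.5%) and 1525 fell (18.8%).

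The shift ran along the whole chromosome. In each of 10 successive stretches of 41 or 42 genes the median was between -0.52 and -0.26, with 21 to 33 falls and 1 to 5 rises. It was similar from dim to bright genes, with medians of -0.36, -0.37, -0.41 and -0.44 in the 4 quartiles of level, while the number that fell was 53 of 105, 65 of 104, 74 of 104 and 93 of 104. Against this background the rises on chromosome 1 stood apart, led by Slc40a1, En1 and Nrp2, by the kinesin Kif1a (1.33, SE 0.13) and by Aim2, a DNA sensor (1.19, SE 0.27). Only 2 stretches of like size elsewhere had a median over 0.2 in size. From Trim35 to Enox1 on chromosome 14 it was -0.30, with 22 falls and 5 rises among 42 genes, and from Dmrt2 to Tctn3 on chromosome 19 it was 0.22, with 18 rises and 8 falls among 43. DNA copy number was not measured on these arrays.

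**Figure D5:**
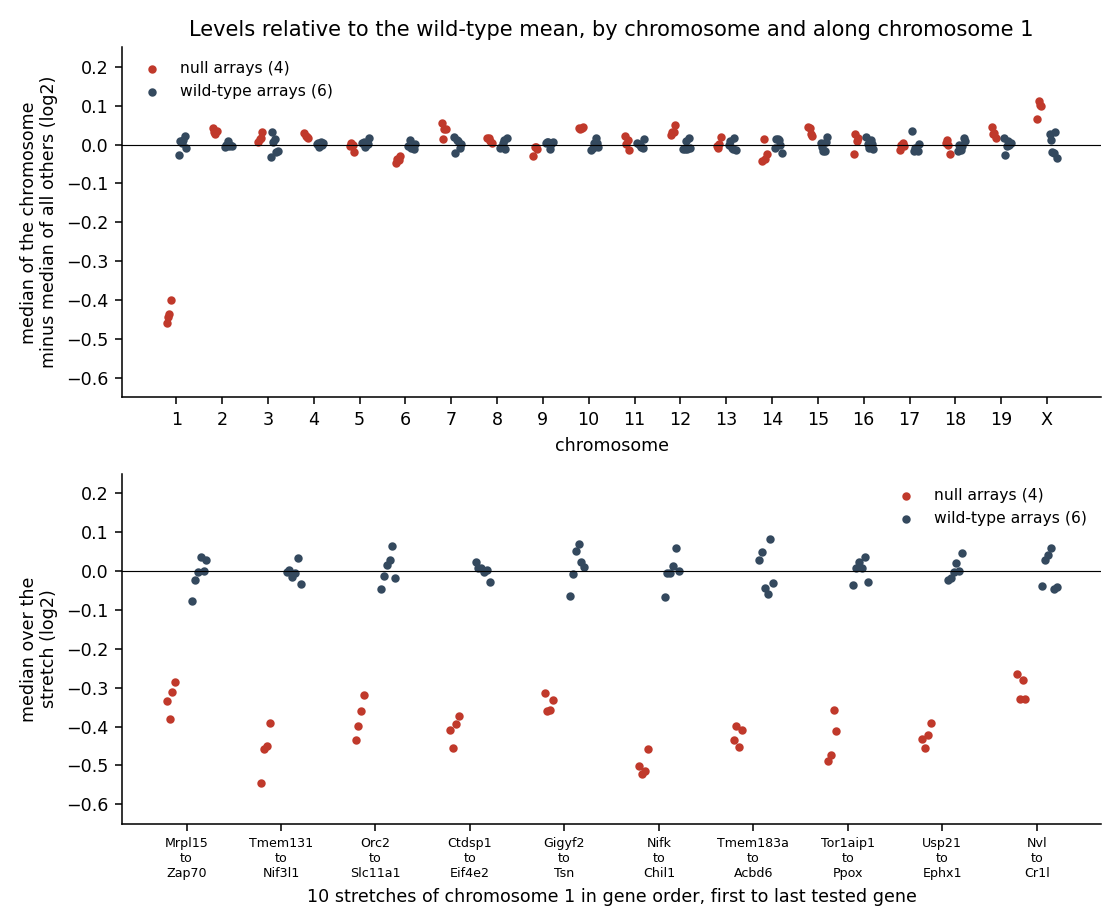
Upper panel, median log2 level of the genes of each chromosome minus that of all others, relative to the wild-type mean, for each null array (red) and wild-type array (dark blue). Lower panel, the median over 10 stretches of chromosome 1 in gene order, where all null arrays lie below all wild-type arrays in every stretch.

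Most calls remained without either set of wild-type arrays. Of the 3819 called genes, 3009 were also called without wild-type arrays 1, 5 and 6 and 3167 without wild-type arrays 2, 3 and 4. In the 10 fits that each left out 1 array, 3201 to 3592 of them were called, 2836 in every one, and none was called in the opposite direction. Genes read by several probes gave a further, partial check. Of 3093 genes with several tested probes, 1061 had at least 2 called. Of these, 19 had probes called in opposite directions, none of them named here. A called probe beside one not called is not counted in this check. The calls of Gnas, Sox2 and Btbd11 were lost with the mean of their probes.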

How the data were processed

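Total RNA of ESC cultures was hybridized to Illumina Mouse WG-6 v2 arrays. The deposited table held, per the file headers, a linear signal intensity and a detection p-value per probe and array, not normalized by the authors. The deposited value table, in which the authors had normalized the intensity, was an alternative. The background, quantile and log2 steps used neqc (offset 16) of limma 3.58.1 in R 4.3.3 on all 16 arrays, followed by lmFit and eBayes with 3 group means and Benjamini-Hochberg adjustment (called: adjusted p under 0.05). Probes were tested where 4 or more of the 10 arrays gave a detection p-value below 0.01. The annotation paired 34885 of 45281 probes with 1 symbol and 18 with several, and the brightest probe stood for a gene. "At least" folds took, for the group below background, each array's dimmest probe above background, or the probe's own signal if higher. Named genes were the Prdm4 probes with 5 tested genes on each side, the 25 largest rises and falls, the 10 smallest p in each direction, up to 6 called members of each list, 10 bound genes in each direction and genes the study named. Not every gene that the rule allows is described. The members and the 56 lists were chosen with earlier results of these data known. Simulated normalized values with known changes in few probes tested only the lmFit and eBayes steps. The background correction, normalization, detection filter and choice of probe were not tested in this way. Array numbers were not taken to pair the samples. Deviations of null and wild-type arrays with the same number correlated at 0.0173, 0.191, 0.152 and -0.0684. Between arrays with different numbers the correlations ran from -0.135 to 0.117. The values for numbers 2 and 3 lay above that range, and whether arrays with the same number shared any handling was not tested.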

Additional observations from a re-analysis of the deposited data

Results flagged for a closer look

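In 14 of 390 groups of arrays (195 genes, null and wild-type apart), 1 array lay far from the rest by Dixon's test at the 95% level. Chance flags about 1 in 20 such groups, or 19.5 here. The widest gap was that of Grb10, at 6.39 on wild-type array 6 and 9.69 to 10.26 on the other wild-type arrays. Ccnd1 (10.97) and Mcm3 (10.29) were low on wild-type array 1, where the others read 11.44 to 11.53 for Ccnd1 and 10.78 to 10.95 for Mcm3. On wild-type array 2 Ctdsp1 (6.37) and Ndufa10 (11.87) were low, and on wild-type array 3 Gnas (8.25) was high. Among null arrays Bora was high on array 1 (9.13), Ccng1 (11.60) and L3mbtl2 (9.11) were high on array 2, where Tsc1 (6.61) was low, and Nkx6-3 was high on array 4 (5.42, below background). Chd8 (10.25), Jag2 (5.62) and Slc2a1 (11.89) were low on null array 4.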

How the results depend on the processing

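The count of 6304 called probes was 2915 among arrays numbered 1 and 2 alone (2 null and 2 wild-type), 3921 among arrays numbered 3 and above alone (2 null and 4 wild-type), 2717 at an adjusted p under 0.001 and 5388 to 6214 when each array was left out in turn. For the genes with proximal Prdm4 binding, where 53 were called, these were 27 among arrays numbered 1 and 2, 30 at the stricter threshold and 44 to 51 with an array left out. The 645 called members of the lists became 321 among arrays numbered 1 and 2, 416 among arrays numbered 3 and above and 550 to 631 with an array left out. These subsets hold fewer arrays. The chromosome 1 median of -0.44 was -0.41 with median scaling, -0.36 without background correction and -0.44 to -0.42 with an array left out. The Prdm4 probes gave -2.57 to -2.49 and -0.66 to -0.60 with an array left out. With the array number as a block, 6032 probes were called (3079 higher and 2953 lower), though the numbers were not taken to pair the samples. Of 195 named genes 186 to 191 were called with an array left out. Genes whose sign turned were not called with all arrays: Smurf1 was 0.011 among arrays numbered 3 and above, 0.021 with the block and -0.082 to 0.064 with an array left out, and Srsf5 was -0.013 without wild-type arrays 1, 5 and 6 but 0.35 and called without wild-type arrays 2, 3 and 4. Zfp42 was -0.020 among arrays numbered 1 and 2, -0.19 in the deposited value table, -0.11 with median scaling, -0.086 without wild-type arrays 2, 3 and 4 and -0.028 to 0.055 with an array left out. The cause was not tested. Of 4095 values of named genes under an alternative 3992 kept their direction and their side of the threshold, 88 lost the call (28 of them among arrays numbered 1 and 2 and 16 among arrays numbered 3 and above), 3 gained it and 12 turned. No gene was called in the opposite direction under any alternative. Brightness limits the dim genes, whose signal below background gives only a bound.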
